A study of Mus musculus with 8 samples.

Results

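The cytosolic ribosomal protein genes of mouse testis and their paralogs are described here. They were taken by symbol alone, as every row whose gene name was Rpl or Rps followed by a number and optional lower-case letters, or Rplp0, Rplp1, Rplp2 or Rpsa. The rule found 86 of the 57690 rows, and no symbol was repeated. Of these members 53 belong to the large and 33 to the small subunit, and the deposited annotation names all 86 as ribosomal proteins and puts all 86 in its ribosome pathway. Testes of 8-week-old C57BL/6 mice were compared. The anti-PD-L1 group had 4 libraries, made after 2 injections into the peritoneum of 200 µg each of an antibody against PD-L1, which binds the receptor PD-1 on T cells and restrains them. The IgG group had 4 libraries, made after IgG2b isotype antibody given in the same amount, route and number of injections, and tissue of both groups was collected on day 7 after treatment. Whether each library is a different animal is not stated, and p-values therefore cover only the spread among these libraries, part of which may be technical. Levels are in TPM, which counts transcripts relative to gene length and to all transcripts of the library. Levels of different genes can thus be set side by side, except that rows with near-identical copies also depend on how shared reads were assigned. The number of reads behind the levels is unknown.

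The ribosome holds a fixed set of ribosomal proteins, arranged around the ribosomal RNA in a small subunit that reads the messenger RNA and a large subunit that joins amino acids. Most of the genes are active in every cell, and many of their messages start with a run of pyrimidines through which mTOR signalling sets their translation. The testis is unusual because the X chromosome is silenced in meiosis, while autosomal retrocopies of several X-linked ribosomal protein genes are expressed in male germ cells. In mice Rpl10l is known to stand in for Rpl10 during that silencing, and Rpl39l is known as a protein of the exit tunnel of germ cell ribosomes.

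The members together held between 3.51% and 3.87% of all TPM in anti-PD-L1 libraries and between 3.54% and 4.20% in IgG libraries. Summed TPM was 35213, 37489, 35143 and 38670 in anti-PD-L1 replicates 1 to 4, against 42017, 37753, 36149 and 35414 in IgG replicates 1 to 4. IgG replicate 1 lay above the other libraries and the remaining 7 overlapped between the groups. Levels of single members ran over a wide range. The highest was Rpl41, which encodes the smallest protein of the ribosome, at a mean of 1597 TPM over the 8 libraries. Rps24, a small-subunit protein, followed at 1553 TPM, Rps27, a zinc finger protein of the small subunit, at 1414 TPM and Rpl36 at 1367 TPM. Rpl26 had 1135 TPM and Rps14, a protein of the small-subunit platform, 1047 TPM. The ranges of Rpl41 and Rps24 over libraries overlapped, with 1449 to 1562 TPM for Rpl41 and 1456 to 1640 TPM for Rps24 in anti-PD-L1 libraries, so their order is within the spread. This order is of single rows. With copies outside the rule added, the Rps28 family reached 2125 TPM, above the 1597 TPM of Rpl41. The Rps27 family, mostly its member rows Rps27, Rps27l and Rps27rt, summed to 1632 TPM.

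At the other end stood 3 members with a mean under 1 TPM. Rpl3l, the striated muscle paralog of Rpl3, had 0.600 ± 0.262 TPM in anti-PD-L1 libraries and 0.373 ± 0.0640 TPM in IgG libraries (SD, n = 4 each). Rpl6l had 0.455 ± 0.531 TPM in anti-PD-L1 libraries and 0.493 ± 0.424 TPM in IgG libraries (SD, n = 4 each). Rpl32l was listed at 0 in 7 libraries and at 0.530 TPM in IgG replicate 4. These 3 were not tested, which left 83 members averaging 1 TPM or more. The lowest of the 83 were Rps27rt at 14.1 TPM, Rpl5 at 17.4 TPM, Rpl39 at 31.9 TPM, Rpl12 at 33.8 TPM, Rpl10 at 44.5 TPM and Rps4x at 56.5 TPM. Rpl5 carries the 5S ribosomal RNA into the large subunit, and Rpl12 lies at the base of the stalk that recruits elongation factors. Both have processed copies with far higher TPM, given below. Rpl39, Rpl10 and Rps4x are X-linked and have an autosomal paralog, and Rps27rt is itself a copy of Rps27.

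**Figure D1:**
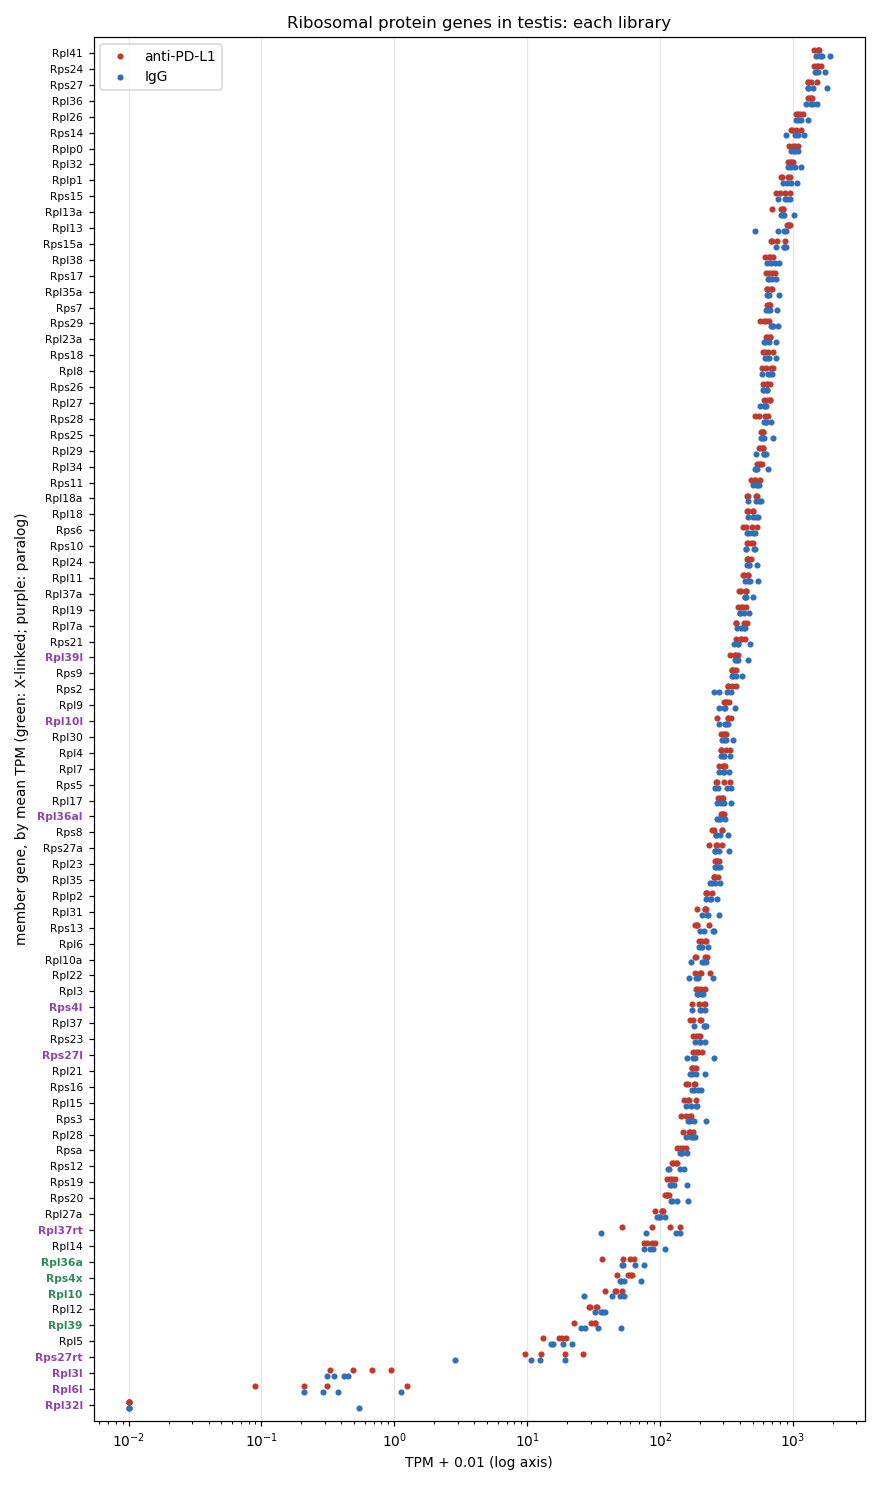
TPM plus 0.01 on a log axis (horizontal) for each of the 86 members (vertical, ordered by mean), with anti-PD-L1 libraries as red points above IgG libraries as blue points, 4 libraries each. The points of most genes lie close together, those of Rpl32l, Rpl6l, Rps27rt and Rpl37rt are spread widely, Rpl41 leads at a mean of 1597 TPM, and the X-linked genes named in green lie between 31.9 and 57.3 TPM.

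The 4 X-linked members, Rpl39, Rpl10, Rps4x and Rpl36a, had means of 31.9 to 57.3 TPM with a median of 50.5 TPM. The 72 autosomal members that are not paralogs had a median of 415 TPM, and 2 of them, Rpl5 and Rpl12, lay below the highest X-linked member. Among protein-coding genes averaging 1 TPM or more, the median level was 5.81 TPM for 641 X-linked and 14.96 TPM for 13350 autosomal genes. In whole testis RNA a lower level can come from fewer cells of a type or from less RNA per cell, and these cannot be told apart.

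Each of the 4 X-linked genes had an autosomal partner with a higher level in 8 of 8 libraries. Rpl39l (mm10 chromosome 16, 10170226 to 10174911) encodes a near copy of the protein of Rpl39 (chromosome X, 37082520 to 37085402), which lines the tunnel through which the new chain leaves the ribosome. Rpl39l had 335, 384, 364 and 370 TPM in anti-PD-L1 replicates 1 to 4, against 459, 378, 386 and 366 TPM in IgG replicates 1 to 4. Rpl39 had 32.2, 32.6, 22.5 and 30.3 TPM in anti-PD-L1 replicates, against 50.5, 27.4, 25.6 and 34.0 TPM in IgG replicates. Every library of Rpl39l lay above every library of Rpl39, and IgG replicate 1 was the highest library for both genes. Rpl39l held 11.9 times the TPM of Rpl39 over the 8 libraries, with a range of 10.4 to 16.2 times in anti-PD-L1 libraries and of 9.08 to 15.1 times in IgG libraries. The coding sequences, compared here without the untranslated bases, are shown because their differences help to assign reads to one gene or the other. They are the spliced coding bases of GENCODE M21 for GRCm38 without the stop codon, on the gene's own strand (plus for Rpl39l, minus for Rpl39), with capitals where the genes differ.
Rpl39l: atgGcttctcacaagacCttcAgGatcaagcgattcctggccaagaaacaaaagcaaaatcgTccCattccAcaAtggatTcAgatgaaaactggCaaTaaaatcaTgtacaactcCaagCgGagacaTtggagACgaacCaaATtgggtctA
Rpl39: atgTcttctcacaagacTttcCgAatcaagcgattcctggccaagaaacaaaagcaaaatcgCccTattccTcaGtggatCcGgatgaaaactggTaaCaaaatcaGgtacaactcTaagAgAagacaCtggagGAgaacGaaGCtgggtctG
The sequences have 153 bases each and differ at 23 of them, an identity of 85.0%. Of the differences 16 fall on the third position of a codon, 5 on the first and 2 on the second, over 51 codons. The longest run that the transcripts of Rpl39l share with the coding bases of Rpl39 is 38 bases.

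Rpl10l (chromosome 12, 66283379 to 66284401) has 1 exon, while Rpl10 (chromosome X, 74270812 to 74273135), whose protein sits near the catalytic centre and is needed for the subunits to join, has 7. Rpl10l had 271, 324, 326 and 342 TPM in anti-PD-L1 replicates 1 to 4, against 323, 312, 310 and 279 TPM in IgG replicates 1 to 4. Rpl10 had 46.3, 38.7, 45.5 and 52.1 TPM in anti-PD-L1 replicates, against 53.2, 49.9, 26.6 and 43.6 TPM in IgG replicates. The groups overlapped for both genes, and IgG replicate 3 was low for the Rpl10 row but not for Rpl10l. In that library Rpl10-ps3, a copy matching all 642 coding bases of Rpl10, had 80.0 TPM. This copy had 82.2, 59.3 and 73.7 TPM in IgG replicates 1, 2 and 4. How reads were split between Rpl10 and the copy is not given in the sources used here. Over the 8 libraries Rpl10l held 6.99 times the TPM of Rpl10, with a range of 5.85 to 8.39 times in anti-PD-L1 and 6.08 to 11.6 times in IgG libraries. Their coding sequences of 642 bases each differ at 98 bases, an identity of 84.7%.

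Rpl36al (chromosome 12, 69182731 to 69184083) and its X-linked parent Rpl36a (chromosome X, 134585654 to 134588062) encode versions of a large-subunit protein near the exit site for transfer RNA. Rpl36al had 299, 292, 286 and 302 TPM in anti-PD-L1 replicates 1 to 4, against 307, 280, 269 and 283 TPM in IgG replicates 1 to 4. Rpl36a had 63.9, 59.3, 36.3 and 52.9 TPM in anti-PD-L1 replicates, against 76.0, 53.0, 65.0 and 52.1 TPM in IgG replicates. The paralog row was steady across libraries and the parent row was less so, with a coefficient of variation of 4.35% for Rpl36al and 20.4% for Rpl36a. Part of the parent's family lies in Rpl36a-ps2, a copy that matches all 318 coding bases of Rpl36a. With the same-family rows other than the paralog added, Rpl36a had 170 ± 13.3 TPM in anti-PD-L1 and 168 ± 29.6 TPM in IgG libraries (SD, n = 4 each). Rpl36al held 5.06 times the TPM of Rpl36a, and the coding bases were 87.7% identical.

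Rps4l (chromosome 6, 148354656 to 148355598) is annotated as a transcribed processed pseudogene, which is a reverse-transcribed copy, and its parent Rps4x (chromosome X, 102184941 to 102189394) encodes a small-subunit protein. Rps4l had 173, 213, 196 and 218 TPM in anti-PD-L1 replicates 1 to 4, against 199, 220, 203 and 175 TPM in IgG replicates 1 to 4. Rps4x had 59.3, 57.6, 47.5 and 61.8 TPM in anti-PD-L1 replicates, against 72.4, 50.5, 49.9 and 53.6 TPM in IgG replicates. The paralog lay above its parent in every library and the groups overlapped for both. Rps4l held 3.53 times the TPM of Rps4x, and 79.6% of the 789 coding bases of Rps4x were found in it.

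None of these ratios passed a test of its difference between the groups. Each ratio uses the parent's own row, without the copies described below. On the log2 scale, with 0.1 TPM added to each level, the ratio of Rpl39l to Rpl39 was 3.64 ± 0.27 in anti-PD-L1 and 3.57 ± 0.33 in IgG libraries (SD, n = 4 each; two-sided exact permutation p = 0.771). That of Rpl10l to Rpl10 was 2.79 ± 0.22 in anti-PD-L1 and 2.86 ± 0.45 in IgG libraries (exact permutation p = 0.857). That of Rpl36al to Rpl36a was 2.50 ± 0.34 in anti-PD-L1 and 2.23 ± 0.22 in IgG libraries (exact permutation p = 0.229). For Rps4l to Rps4x it was 1.82 ± 0.21 in anti-PD-L1 and 1.83 ± 0.30 in IgG libraries (exact permutation p = 1). The p-values come from all 70 assignments of 4 and 4 libraries, of which the smallest possible is 0.0286, and 10 pairs were compared with the smallest Benjamini-Hochberg adjusted p at 0.643. A p above the threshold does not show that the ratios were equal.

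**Figure D2:**
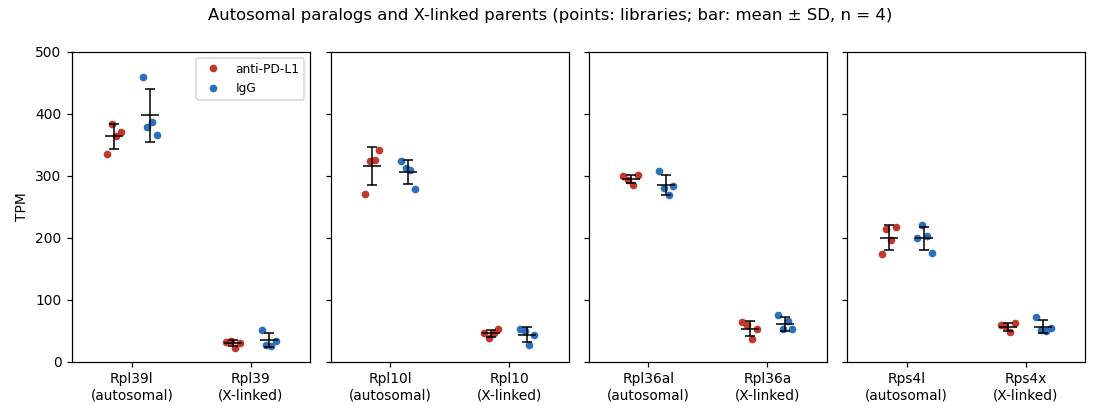
TPM (vertical) of 4 autosomal paralogs and their X-linked parents, with each anti-PD-L1 library in red left of each IgG library in blue and bars for mean ± SD (n = 4). In every panel all paralog points lie above all parent points, and the red and blue points overlap.

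The other paralogs set against a parent lay below their parents in 8 of 8 libraries. Rps27l, a paralog on chromosome 9 that p53 is known to induce, had 191 ± 12.9 TPM in anti-PD-L1 and 194 ± 42.0 TPM in IgG libraries (SD, n = 4 each), and held 0.136 times the TPM of Rps27. Rps27rt, a copy on chromosome 9 with 1 exon whose 252 coding bases all match those of Rps27, had 26.3, 9.64, 19.1 and 12.7 TPM in anti-PD-L1 replicates 1 to 4, against 19.1, 12.4, 10.6 and 2.84 TPM in IgG replicates 1 to 4. Its groups overlapped, its log2 difference of 0.68 had a standard error of 0.49 (limma adjusted p = 0.999), and without anti-PD-L1 replicate 1 and IgG replicate 4 the difference was -0.03. Rpl37rt matches 290 of the 291 coding bases of Rpl37. Its level varied more than that of Rpl37, with 51.4, 141, 87.2 and 119 TPM in anti-PD-L1 replicates, against 79.1, 142, 35.9 and 132 TPM in IgG replicates. A read lying wholly within the 252 matching coding bases of Rps27rt and Rps27 has the same letters in both genes. The untranslated bases were not compared, and how such reads were split between the rows is not given in the sources used here. Rpl22l1 and Rpl7l1, named for Rpl22 and Rpl7 but outside the symbol rule, held 0.487 and 0.0734 times the TPM of those genes.

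Processed copies outside the rule matter for several members. The 86 members carry 76 names of orthologous families in the deposited annotation, and 2528 further rows carry the same names. Those rows summed to 8191 TPM, which is 18.0% of the TPM of the families, and rows annotated as pseudogenes held 7129 TPM of it. In 34 families the further rows held under 1%, and in 11 families they held more TPM than the members. In the Rpl12 family 93.8% of TPM lay outside, nearly all in Gm10275, a transcribed processed pseudogene at 511 TPM that matches all 495 coding bases of Rpl12. In the Rpl5 family the figure was 93.1%, with Gm15500 at 235 TPM matching all 891 coding bases of Rpl5. For Rpl27a it was 87.9% (Gm7536, 725 TPM) and for Rps12 86.0% (Rps12-ps3, 783 TPM). Gm10443, which matches all 207 coding bases of Rps28, had 1508 TPM, more than the 612 TPM of Rps28 itself. The low rows of Rpl5 and Rpl12 thus stood beside family levels of 253 and 547 TPM. A read lying wholly within matching coding bases has the same letters in the gene and its copy. The untranslated bases were not compared here either.

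The X-linked parents have copies as well. With the same-family rows other than the paralog added, the level of Rpl10 became 123 TPM, of which Rpl10-ps3, a row on chromosome 9 that matches all 642 coding bases, gave 75.1 TPM. That of Rpl36a became 169 TPM, with Rpl36a-ps2 at 103 TPM, that of Rpl39 34.3 TPM and that of Rps4x 57.02 TPM. Set against these sums, Rpl10l was still 2.53 times, Rpl36al 1.71 times, Rpl39l 11.1 times and Rps4l 3.5 times as high, and each was higher in 8 of 8 libraries.

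**Figure D3:**
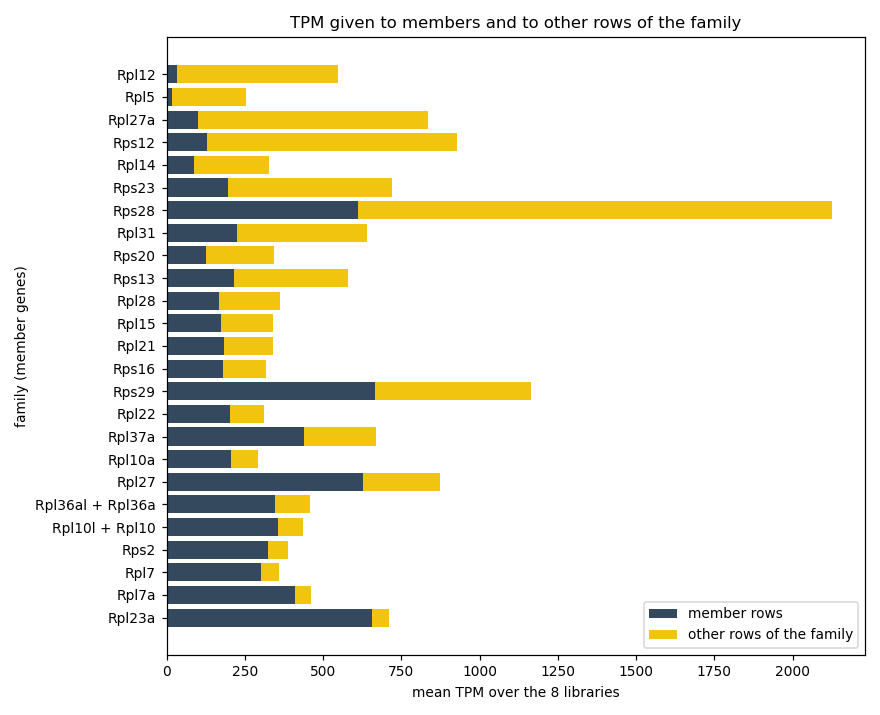
Mean TPM over the 8 libraries (horizontal) for the 25 families with at least 50 TPM outside the members (vertical, ordered by the share outside). Member rows are dark and further rows of the same family name are yellow. In the Rpl12 and Rpl5 families the yellow part holds 93.8% and 93.1%, and the Rps28 family reaches 2125 TPM.

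Some letters that the symbol rule did not use were more frequent in promoters of the members than in those of all genes, the only background counted. A RefSeq promoter on GRCm38.p6, from 250 bases before to 50 bases after the annotated start, was matched by symbol for 64 of the 86 members. Within 50 bases on either side of the start, 51 of the 64 (79.7%) held an unbroken run of at least 8 C or T on the gene's strand, against 35.7% of 27025 promoters of all genes, and the median longest run was 10 bases in members and 7 in all promoters. The letters CTTCCGG on either strand, the core bound by ETS family factors such as GABPA, were found in 24 of 64 full windows of 300 bases (37.5%), against 9.12% of all promoters. AAGATGG on either strand, the core of the YY1 motif, was found in 12.5% of members and 6.48% of all promoters. TATAAA on either strand was found in 9.38% of members and 14.2% of all promoters. A C or T run can overlap CTTCCGG, so these counts are not separate. The windows of the Rpl10 and Rpl39 pairs are printed to show how the paralogs differ from their parents. Each runs 5′ to 3′ on the gene's strand from 100 bases before to 50 bases after the start, with the longest C or T run near the start and any CTTCCGG or its reverse complement CCGGAAG in capitals. They lie at chr12:66284352-66284501 (minus strand, Rpl10l), chrX:74270716-74270865 (plus, Rpl10), chr16:10170128-10170277 (plus, Rpl39l) and chrX:37085173-37085322 (minus, Rpl39).
Rpl10l: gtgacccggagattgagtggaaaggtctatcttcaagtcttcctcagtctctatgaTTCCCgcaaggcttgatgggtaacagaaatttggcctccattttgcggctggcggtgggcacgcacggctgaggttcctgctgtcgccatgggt
Rpl10: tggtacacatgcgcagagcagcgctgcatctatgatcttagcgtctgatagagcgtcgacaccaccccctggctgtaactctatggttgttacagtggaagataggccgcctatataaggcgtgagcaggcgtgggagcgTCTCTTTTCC
Rpl39l: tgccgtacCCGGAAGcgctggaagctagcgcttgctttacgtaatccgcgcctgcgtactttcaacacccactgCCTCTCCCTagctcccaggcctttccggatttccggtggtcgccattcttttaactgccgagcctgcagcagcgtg
Rpl39: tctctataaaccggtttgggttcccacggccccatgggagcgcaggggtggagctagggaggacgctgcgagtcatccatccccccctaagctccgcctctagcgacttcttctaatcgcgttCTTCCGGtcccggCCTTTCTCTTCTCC
The longest runs were 5 bases in Rpl10l and 10 in Rpl10, and 9 in Rpl39l and 14 in Rpl39. Those of Rpl10 and Rpl39 reach the last base of the window, so they may be longer than counted. CTTCCGG or its complement stood in the windows of both genes of the Rpl39 pair and of neither gene of the Rpl10 pair. The annotated start may differ from the start used in germ cells, and no match says only that these letters are not in the window.

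The series asks what anti-PD-L1 did to testis transcripts, and for the ribosomal protein genes no member passed the test. A limma model with an intensity trend was fitted on log2(TPM + 1) over 20343 genes, a scale that understates the change of low genes. Of the 83 tested members 0 had a Benjamini-Hochberg adjusted p under 0.05, as had 0 (0%) of the 20343 genes, and the smallest adjusted p of a member was 0.657 (limma). At an unadjusted p under 0.05 stood 3 members, Rps29, Rps20 and Rpl12, all lower in anti-PD-L1 libraries. That is 3.61% of 83, against 5.23% of all tested genes in either direction, 2.22% lower and 3% higher. The members' differences were small, with a median of -0.04 and a median standard error of 0.07, beside a median of 0.03 over all genes. They ran from -0.25 for Rps20 to 0.68 for Rps27rt. The median coefficient of variation over the 8 libraries was 8.19% for the members and 15.1% for all tested genes, whose median level is lower (316 TPM for members, 8.91 TPM for all). It was under 20% for 79 of the 83 members, lowest for Rpl23 at 3.34%, and above 20% for Rps27rt at 51.1%, Rpl37rt at 41.8%, Rpl39 at 26.6% and Rpl36a at 20.4%.

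Of the 83 members 64 (77.1%) were lower and 19 higher in anti-PD-L1 libraries, beside 41.7% of all tested genes lower, and this direction rested on IgG replicate 1. Without that library 35 members were lower and 48 higher, with a median difference of 0.01. IgG replicate 1 was the highest of the 8 libraries for 62 of the 83 members and lowest for 0. The same count over all tested genes was not made. Anti-PD-L1 replicate 3 was the lowest library for 29 members, anti-PD-L1 replicate 1 for 19, IgG replicate 4 for 16 and IgG replicate 3 for 12. Relative to the mean of the 8 libraries, the median member stood at 0.18 in IgG replicate 1 on the log2 scale and between -0.11 and 0.06 in the others. The median of all tested genes stood at -0.066 in IgG replicate 1, the lowest of the 8 libraries. In the other libraries it lay between -0.055 and 0.075. The within-group SD of the members' library medians was 0.10, more than their median difference between the groups. Among the 50 tested large-subunit members 37 were lower, and among the 33 small-subunit members 27.

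**Figure D4:**
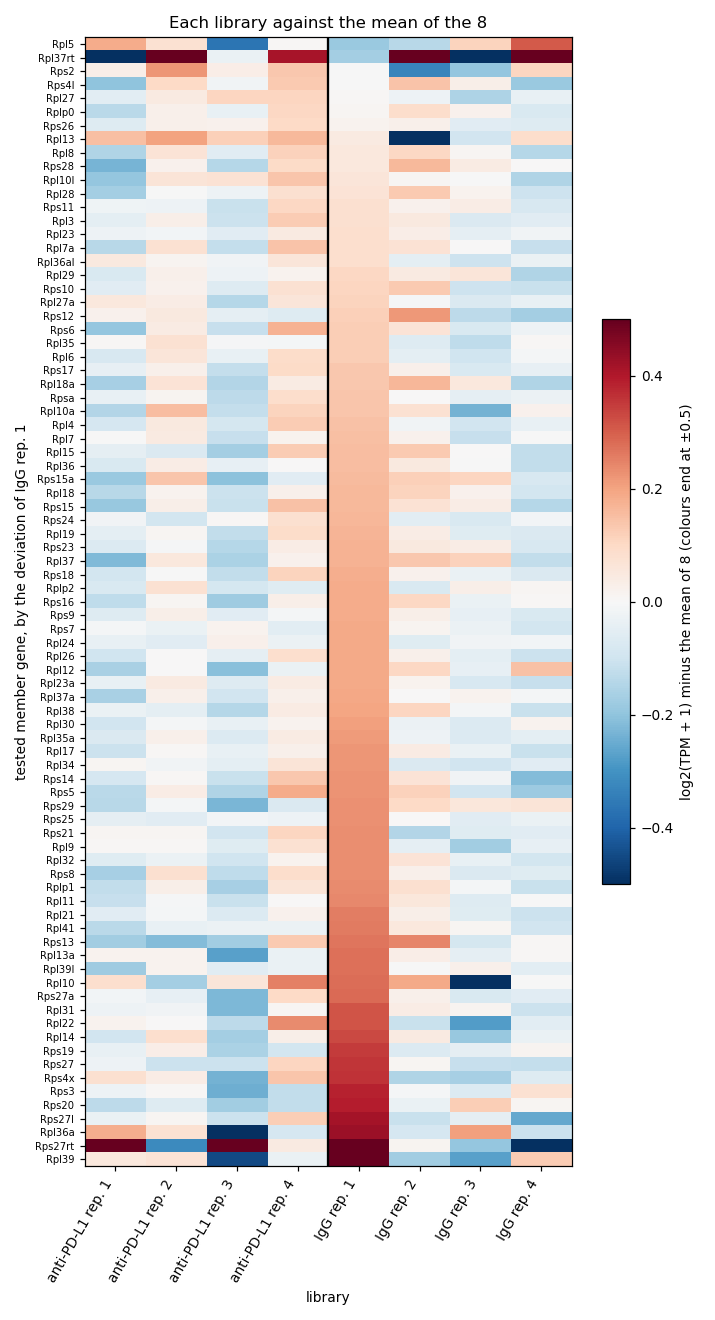
Deviation of each library from the mean of the 8 on the log2(TPM + 1) scale (colour, ends at ±0.5) for the 83 tested members (vertical), with anti-PD-L1 replicates 1 to 4 left of the line and IgG replicates 1 to 4 right of it. The column of IgG replicate 1 is red for most genes, as the highest library for 62 of 83 members, and the other columns are pale with mixed colours.

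The summed level of 11 Leydig cell markers was 2260 to 3533 TPM in anti-PD-L1 libraries and 1278 to 1662 TPM in IgG libraries, without overlap, with 6 of the 11 higher. Most of the sum was Insl3, a Leydig cell hormone, at 1610 to 3028 TPM in anti-PD-L1 and 751 to 998 TPM in IgG libraries (limma adjusted p = 0.202). The other 10 summed to 504 to 759 TPM in anti-PD-L1 and 526 to 664 TPM in IgG libraries, and the groups overlapped. Of these 10, Fdx1 had 44.9 to 64.4 TPM in anti-PD-L1 and 28.9 to 42.3 TPM in IgG libraries, without overlap (limma adjusted p = 0.653). Of all 11 markers 3 had an unadjusted limma p under 0.05, all higher, beside 3% of all tested genes higher, while 5 of the 11 were lower. The summed level of 12 elongating spermatid genes, which mark late germ cells, was 62785 to 71301 TPM in anti-PD-L1 and 65561 to 81600 TPM in IgG libraries. Of these 12 genes 11 (91.7%) were lower, beside 41.7% of all tested genes. The summed erythroid markers were highest in IgG replicate 1 at 209 TPM, beside 159 TPM in anti-PD-L1 replicate 3. Adipocyte markers had 271 TPM in IgG replicate 1 and 247 TPM in IgG replicate 3. Of these, Adipoq, Fabp4 and Cfd had 8.57, 33.2 and 24.6 TPM in IgG replicate 1. They had 7.23, 9.26 and 8.06 TPM in IgG replicate 3, so most of each sum lay in other genes of the list. T and B cell markers had 63.2 and 57.8 TPM in these IgG libraries, again the highest. Sertoli cell markers were highest in anti-PD-L1 replicate 4 at 3016 TPM. The part of cell composition in the members' values was not tested. The tissue label was matched by its markers, since spermatocyte genes summed to 7148 to 7618 TPM in anti-PD-L1 and 7077 to 7802 TPM in IgG libraries.

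The member groups did not overlap for Rps29, Rps20 and Rpl13, which is 3 of 83, beside 2.99% of all tested genes (1.23% lower and 1.76% higher). Rps29, a zinc finger protein of the small-subunit head (ENSMUSG00000034892, mm10 chromosome 12, 69157722 to 69159186), had 603, 659, 566 and 631 TPM in anti-PD-L1 replicates 1 to 4, against 778, 711, 689 and 695 TPM in IgG replicates 1 to 4. All anti-PD-L1 libraries lay below all IgG libraries. The log2 difference was -0.22 (SE 0.06, limma adjusted p = 0.657), and it lay between -0.26 and -0.19 over the alternatives run on this row alone. The copy Gm14303 had 72.0 to 727 TPM across libraries, and with the rows of the Rps29 family summed the levels were 1031 ± 326 TPM in anti-PD-L1 and 1296 ± 109 TPM in IgG libraries (SD, n = 4 each; limma log2 difference -0.39, SE 0.21, adjusted p = 0.999).

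Rps20, another protein of the small-subunit head (ENSMUSG00000028234, chromosome 4, 3831334 to 3835665), had 112, 118, 109 and 113 TPM in anti-PD-L1 replicates 1 to 4, against 162, 120, 134 and 124 TPM in IgG replicates 1 to 4. Again the groups did not overlap, and IgG replicate 1 was far above the rest. The log2 difference was -0.25 (SE 0.09, limma adjusted p = 0.834), or -0.16 without IgG replicate 1. Summed over the family, with the copy Gm4332 at 217 TPM, it was -0.14 (SE 0.10, limma adjusted p = 0.999).

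Rpl12 (ENSMUSG00000038900, chromosome 2, 32961559 to 32965345) had 29.9, 33.7, 29.0 and 32.9 TPM in anti-PD-L1 replicates 1 to 4, against 38.5, 36.3, 32.7 and 37.3 TPM in IgG replicates 1 to 4. The groups overlapped through IgG replicate 3. The log2 difference was -0.20 (SE 0.08, limma adjusted p = 0.881). With the copy Gm10275 and the other family rows added it was 0.03 (SE 0.07, limma adjusted p = 0.999), so the sign turned. The summed levels were 553 ± 29.0 TPM in anti-PD-L1 and 541 ± 50.3 TPM in IgG libraries (SD, n = 4 each).

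Rpl13, a protein of the large subunit (ENSMUSG00000000740, chromosome 8, 123102350 to 123105244), was the member with every anti-PD-L1 library above every IgG library. It had 922, 954, 902 and 929 TPM in anti-PD-L1 replicates 1 to 4, against 856, 519, 776 and 882 TPM in IgG replicates 1 to 4. IgG replicate 2 was well below the others. The log2 difference was 0.32 (SE 0.15, limma adjusted p = 0.981), and without IgG replicate 2 it was 0.15.

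Other members with the smallest p in each direction had groups that overlapped. Rps2, a protein at the entry of the messenger channel, had 344 ± 22.2 TPM in anti-PD-L1 and 300 ± 40.4 TPM in IgG libraries (SD, n = 4 each), a log2 difference of 0.21 (SE 0.09, limma adjusted p = 0.968). Rpl27 had 649 ± 33.5 TPM in anti-PD-L1 and 603 ± 28.4 TPM in IgG libraries, a difference of 0.10 (SE 0.05). Rpl36al, described above, differed by 0.05 (SE 0.05), and Rps26, which contacts the message near its exit, by 0.04 (SE 0.05). On the lower side, Rps13 differed by -0.21 (SE 0.10), Rps3, a protein of the messenger entry channel, by -0.19 (SE 0.10) and Rps16 by -0.13 (SE 0.07). Without IgG replicate 1 the difference of Rps3 was -0.098 and that of Rpl36al 0.087, and without IgG replicate 2 that of Rps2 was 0.13. Rpl36al stood at 0.024 without IgG replicate 3, and Rps26 between 0.013 and 0.068 without single libraries, lowest when anti-PD-L1 replicate 4 was left out and highest when anti-PD-L1 replicate 1 was, with 0.024 without IgG replicate 4. For Rps13 the family sum differed by -0.01 (SE 0.05), with 578 ± 35.7 TPM in anti-PD-L1 and 583 ± 24.9 TPM in IgG libraries (SD, n = 4 each).

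**Figure D5:**
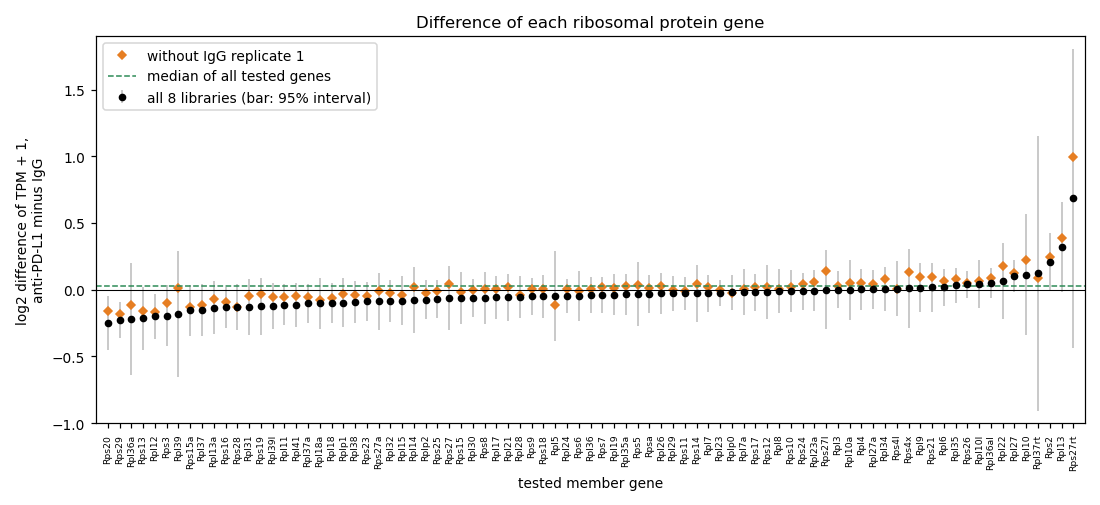
Log2 difference of TPM + 1, anti-PD-L1 minus IgG (vertical), for each of the 83 tested members (horizontal, ordered by size), with black points and 95% intervals for all 8 libraries and orange diamonds without IgG replicate 1. Most black points lie below 0 (64 of 83) and most diamonds lie above it (48 of 83).

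Members with known roles outside the core of the ribosome showed values of the same order. The stalk proteins Rplp0, Rplp1 and Rplp2, which recruit elongation factors, differed by -0.02 (SE 0.06), -0.10 (SE 0.08) and -0.07 (SE 0.06). Rplp0, often used as a reference transcript, had 1016 ± 69.7 TPM in anti-PD-L1 and 1030 ± 48.5 TPM in IgG libraries (SD, n = 4 each). Rpl11, which with Rpl5 binds the p53 regulator MDM2 when ribosome assembly is disturbed, had 442 ± 19.7 TPM in anti-PD-L1 and 480 ± 44.6 TPM in IgG libraries, and Rpl5 had 17.1 ± 2.82 TPM in anti-PD-L1 and 17.7 ± 3.04 TPM in IgG libraries. Rps6, the substrate of S6 kinase, had 474 ± 54.4 TPM in anti-PD-L1 and 488 ± 30.1 TPM in IgG libraries. Rps27a, made as a fusion with ubiquitin, had 265 ± 24.2 TPM in anti-PD-L1 and 282 ± 34.0 TPM in IgG libraries. Rps19, the gene most often mutated in human Diamond-Blackfan anaemia, had 121 ± 6.87 TPM in anti-PD-L1 and 133 ± 19.2 TPM in IgG libraries. In each of these the groups overlapped.

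Ribosomal genes whose symbols fall outside the rule gave values alike in size. Fau, made as a fusion with a ubiquitin-like protein, differed by -0.07 (SE 0.07), or -0.013 without IgG replicate 1, -0.12 without IgG replicate 4 and -0.026 with anti-PD-L1 replicate 1 left out. Rps3a1 differed by 0.01 (SE 0.09), and Rack1, a signalling scaffold on the small subunit, by -0.06 (SE 0.09), and 0 of the 5 such genes examined had an unadjusted limma p under 0.05. Of 10 tested elongation factors 0 had one, Eef1b2 at -0.17 (SE 0.10) and Eif5a2 at 0.18 (SE 0.11) being nearest. Without IgG replicate 1 the difference of Eef1b2 was -0.085. Among 31 initiation factors 1 had, Eif1, a factor of start codon choice, at -0.10 (SE 0.04, limma adjusted p = 0.914), and its groups did not overlap. Eif4e, the cap-binding protein, had 305 ± 10.1 TPM in anti-PD-L1 and 327 ± 12.2 TPM in IgG libraries (SD, n = 4 each), with overlap. Of 20 other genes with a pyrimidine start 1 had, Tpt1, with 631 ± 28.3 TPM in anti-PD-L1 and 701 ± 55.6 TPM in IgG libraries (SD, n = 4 each; limma adjusted p = 0.931). Nap1l1, a histone chaperone of that list, differed by 0.14 (SE 0.07).

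Of 78 mitochondrial ribosomal protein genes, whose proteins build a separate ribosome, 34 were higher and 44 (56.4%) lower, beside 41.7% of all tested genes lower. At an unadjusted limma p under 0.05 stood 3 higher and 2 lower. Mrps18b had 51.6 ± 2.90 TPM in anti-PD-L1 and 58.8 ± 1.52 TPM in IgG libraries (SD, n = 4 each), and Mrpl3 39.3 ± 3.96 TPM in anti-PD-L1 and 31.3 ± 3.84 TPM in IgG libraries. Of 47 ribosome biogenesis genes 32 were higher and 15 (31.9%) lower, with 1 in each direction at that p. Nop58, of the small nucleolar particles that modify ribosomal RNA, differed by 0.14 (SE 0.06). Utp14b, an autosomal retrocopy needed for male germ cells in mice, had 3.54 ± 1.11 TPM in anti-PD-L1 and 5.91 ± 0.543 TPM in IgG libraries (SD, n = 4 each), a difference of -0.64 (SE 0.19, limma adjusted p = 0.657) with groups that did not overlap. Of 16 tested genes of mTOR and Myc signalling 1 had an unadjusted p under 0.05, Akt1s1, an inhibitor within the mTOR complex, at 0.48 (SE 0.18, limma adjusted p = 0.883). Max, the partner of Myc, differed by 0.46 (SE 0.27), or 0.22 with anti-PD-L1 replicate 1 left out and 0.70 when anti-PD-L1 replicate 3 was dropped. All of these shares stand beside the 5.23% of all tested genes with such a p.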

How the data were processed

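RNA of testis was measured in 8 libraries, grouped by their titles. The authors deposited TPM for each gene and library, group means and a column of other values, gene length in bases, which served here only for a check of length trends. The build mm10 and the tools StringTie, RSEM, HISAT2 and CASAVA 1.8 are named in the submitters' processing notes. Tool roles, strand setting and the handling of reads with several matches: not given in the sources used here. Without depth in TPM, no counting intervals are printed.

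Values were analysed as log2(TPM + 1) for genes averaging 1 TPM or more, with limma 3.58.1 in R 4.3.3 (group term, intensity trend, Benjamini-Hochberg adjustment over all 20343 genes at 0.05). TMM factors (a trimmed mean of log ratios) were computed on TPM. Single ratios were compared by two-sided exact permutation over 70 assignments. Sequences and motifs were read with Python 3.11.15 and Biopython 1.88 from GENCODE M21 and RefSeq tables. All 86 members matched GENCODE, and 82 are protein-coding. Scripts were tested on simulated data. The members and lists were chosen with earlier results of these data known, partly taken over from an earlier treatment of the same files.

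Genes named were each paralog and parent, the 6 highest and 6 lowest tested members, the 6 of smallest p in each direction, members without overlap, Fau, Rps3a1 and Rack1, and 2 genes of each other translation list. A further gene chosen in this way is not reported here. Members described by their role and the copies outside the rule were chosen after their values were seen. Alternatives were another pseudocount, filters, scalings, length trend, weights, no intensity trend, the replicate block and leaving out libraries. Sums over families, the Leydig cell sum without Insl3 and the Rpl37rt pair were added after seeing the data. The replicate numbers were not taken as pairs: deviations of same-numbered libraries correlated at -0.11, 0.10, 0.09 and -0.20.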

Additional observations from a re-analysis of the deposited data

Results flagged for a closer look

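Among 120 groups of 4 libraries examined, 10 had 1 library far from the other 3, by a gap that took most of the group's range (Dixon's test at 95%). Chance gives about 1 such flag in 20 groups. In anti-PD-L1 libraries Rpl41 was low in replicate 1 at 1449 TPM, against 1554 to 1562 TPM in the others. Rps13 was high in anti-PD-L1 replicate 4 at 234 TPM, against 184 to 189 TPM, and Tpt1 in the same library at 673 TPM, against 612 to 621 TPM. The ratio of Rps27l to Rps27 was high in anti-PD-L1 replicate 2 at 0.147, against 0.135 to 0.137. The ratio of Rpl7l1 to Rpl7 was high in anti-PD-L1 replicate 4 at 0.0835, against 0.0704 to 0.0724.

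IgG replicate 1 stood high for 3 genes. Rps4x had 72.4 TPM there, against 49.9 to 53.6 TPM in the other IgG libraries, Rps3a1 had 256 TPM, against 194 to 205 TPM, and Eif1 had 397 TPM, against 379 to 382 TPM. The ratio of Rpl10l to Rpl10 was 11.6 in IgG replicate 3, against 6.08 to 6.40 in the others. Only the Rpl10 row enters this ratio, and its copy Rpl10-ps3 had 80.0 TPM in that library. Akt1s1 was high in IgG replicate 4 at 36.9 TPM, against 22.5 to 24.6 TPM.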

How the results depend on the processing

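No gene passed the adjusted threshold in the test as designed. With a pseudocount of 0.1 limma called 1 gene, with array weights 5, and without anti-PD-L1 replicate 1 and IgG replicate 4 together 9. Leaving out single libraries gave 0 to 16: 16 without IgG replicate 4, 3 without anti-PD-L1 replicate 4, and 1 when either IgG replicate 2 or anti-PD-L1 replicate 1 was dropped. Members among these calls numbered 0. The 3 members with an unadjusted p under 0.05 became 5 with quantile normalization, 5 with array weights, 5 without both of those libraries and 1 of 76 with sums over families (Rpl37a, -0.15). They became 1 to 9 without single libraries, the lowest when anti-PD-L1 replicate 3 was dropped and the highest when IgG replicate 4 was. The replicate block gave 4 such members and 0 genes past the adjusted threshold, with 610 higher and 455 lower at an unadjusted p under 0.05 over all genes, against 611 and 452 without it. The median difference lay between -0.082 and 0.0051, and the log2 ratio of summed TPM between -0.077 and 0.0075, without single libraries, and both changed sign without IgG replicate 1. Members lower in anti-PD-L1 numbered 72 of 83 with TMM factors, 61 with quantile normalization and 55 with array weights. Differences of log2 ratios without single libraries ran -0.17 to 0.15 for Rpl10l over Rpl10, -0.068 to 0.17 for Rpl39l over Rpl39, 0.33 to 0.73 for Rpl3l over Rpl3, 0.12 to 0.37 for Rpl36al over Rpl36a, -0.13 to 0.10 for Rps4l over Rps4x. They ran 0.030 to 0.10 for Rps27l over Rps27, 0.33 to 1.07 for Rps27rt over Rps27, -0.19 to -0.068 for Rpl22l1 over Rpl22, -0.023 to 0.072 for Rpl7l1 over Rpl7, -0.15 to 0.55 for Rpl37rt over Rpl37. That of Rps4l over Rps4x was 0.050 without both named libraries, and Rpl3l over Rpl3 reached the smallest exact permutation p, 0.0286, without anti-PD-L1 replicate 2. Named genes with small differences changed sign without single libraries, over ranges of -0.087 to 0.14 (Rps27l), -0.13 to 0.024 (Rpl22l1), -0.30 to 0.015 (Rpl39), -0.043 to 0.035 (Rpl3), -0.12 to 0.042 (Rps27), -0.071 to 0.017 (Rpl7), -0.039 to 0.042 (Rps24), -0.086 to 0.0067 (Rpl36), -0.069 to 0.030 (Rpl26), -0.11 to 0.042 (Rps14). Further ranges were -0.045 to 0.13 (Rps4x), -0.031 to 0.10 (Rps3a1), -0.10 to 0.22 (Rpl10), -0.019 to 0.18 (Rpl22), -0.0027 to 0.11 (Rpl10l), -0.054 to 0.074 (Rps4l), -0.12 to 0.065 (Rpl5), -0.060 to 0.057 (Rpl7l1), -0.13 to 0.022 (Rack1). Others kept their sign but moved by over 1.5 times: Rpl39l -0.052 without IgG replicate 1, Rps27rt 0.20 without IgG replicate 4, 0.45 without anti-PD-L1 replicate 1, Rpl36a -0.12 without IgG replicate 1, -0.053 without anti-PD-L1 replicate 3, Rpl41 -0.047 without IgG replicate 1. With quantile normalization the sign turned for Rps27l (0.0083), Rpl7l1 (-0.032), Rpl3 (0.0029), Rps4x (-0.023). With TMM factors the sign turned for Rps4l (-0.021), Rpl7l1 (-0.021), Rps4x (-0.018), Rps3a1 (-0.013). With the length trend removed the sign turned for Rps27l (0.0098), Rpl7l1 (-0.023). With array weights the sign turned for Rps4l (-0.0010), Rps27l (0.029), Rpl3 (0.017), Rpl7 (0.0070), Rps24 (0.0069), Rpl5 (0.0015). With both named libraries left out the sign turned for Rps27rt (-0.032), Rps4x (-0.036). The causes were not tested. Summing rows of a repeated symbol could not be run, as no symbol was repeated. TPM keeps no depth, so low rows such as Rps27rt cannot be given a counting error.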
